A study of Mus musculus with 21 samples.

Results

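The CCN genes encode a small family of secreted matricellular proteins. The 5 members described here were Wisp2 (also called Ccn5), Cyr61 (Ccn1), Ctgf (Ccn2), Nov (Ccn3) and Wisp1 (Ccn4), found by symbol among the 25127 Ensembl genes of the per-library table. Wisp2 was chosen by its measured change, one of the largest rises in the knockout, so its knockout values are a description and carry no test. The other 4 were taken as its relatives.

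Matricellular proteins are released into the extracellular matrix, where they modify how cells respond to adhesion and to growth factors and add little to the structure itself. CCN proteins share an insulin-like growth factor binding module, a von Willebrand type C module and a thrombospondin repeat, and all but Wisp2 also carry a C-terminal cystine knot. They act through integrins, heparan sulphate proteoglycans and LRP co-receptors. Cyr61 and Ctgf are classical targets of YAP and TAZ with TEAD factors and of TGF-beta, while Wisp1 and Wisp2 were named for their induction by Wnt1.

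RNA was measured in spinal cord of C57BL/6 mice in which Tardbp, the gene of the RNA-binding protein TDP-43, was deleted by Cnp-Cre, a Cre expressed from the locus of the myelin gene Cnp. Controls were Tardbp-fl/fl without Cre, the heterozygous group (cHET) was Cnp-Cre; Tardbp-fl/+, and the knockout (cKO) was Cnp-Cre; Tardbp-fl/fl. At P21 each genotype had 4 animals, 2 female and 2 male, all 21 days old, with libraries from an Illumina TruSeq kit. At P60 each genotype had 3 animals, with libraries from a NEXTflex Rapid Directional kit. The P60 controls were female and 74 days old, the cHET animals male and 60 to 65 days old, and the cKO animals male and 61 to 64 days old. Both Cre groups carry the Cre allele at Cnp and the controls do not, so cKO against cHET is the comparison matched for Cre and, at P60, for sex. Cnp is also active in Schwann cells, which line the spinal roots. Each library came from a mouse with its own number, and the kit and the age cannot be told apart.

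Values are normalised scaled reads per base, which are per length and can be compared between genes within an age. Their sum per library, in units of 1e6, was 26.9 to 29.2 at P21 and 12.5 to 13.8 at P60; read depth is unknown. Tardbp itself ranged from 1639 to 1880 in cKO cords at P21, below the 2030 to 2236 of cHET and the 2155 to 2415 of controls. The P60 knockouts had 783 to 831, the cHET animals 906 to 932 and the controls 828 to 937. The log2 change of Tardbp in cKO against cHET was −0.29 ± 0.06 (SE; adjusted p = 0.0025) at P21 and −0.20 ± 0.06 (adjusted p = 0.04) at P60, and against P60 controls it was −0.14 ± 0.06 (adjusted p = 0.14), in cords that also hold many cells without Cre. In whole cord, fewer cells of a type and less RNA per cell cannot be told apart.

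One P21 cHET library, replicate 1, stood apart from the rest. Genes of cerebral cortex neurons were high in it: Slc17a7, a vesicular glutamate transporter, was 4177 there and 194 to 358 in the other 11 P21 libraries, and Fezf2 was 104 against 0 to 6.40. The trunk gene Hoxb8 was 4800 in this library, within the 4018 to 5927 of the others. P21 results that use cHET libraries are given with and without it where a call or a count of calls moved.

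Among controls at P21 the family was ordered Ctgf (571 ± 143; mean ± SD, n = 4), Cyr61 (199 ± 68.4), Nov (104 ± 13.3), Wisp1 (16.4 ± 1.80) and Wisp2 (6.62 ± 3.08), and no neighbours in this order overlapped. The order of the means was the same in P60 controls, at 182 ± 56.4 (n = 3) for Ctgf, 73.8 ± 7.82 for Cyr61, 40.8 ± 4.70 for Nov, 5.83 ± 0.658 for Wisp1 and 4.90 ± 1.84 for Wisp2, with only Wisp1 and Wisp2 overlapping. In normal cord Ctgf thus carried most of the family's signal, 54.2% to 69.7% of the 5-gene sum in P21 controls, and Wisp2 0.422% to 1.33%.

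Wisp2 lacks the C-terminal module that its relatives carry and is known from fibroblasts, adipose tissue and vascular smooth muscle. Its gene (ENSMUSG00000027656) lies on GRCm38 chromosome 2 from 163820861 to 163833146 on the plus strand, and its longest coding sequence has 251 codons. The P21 controls had Wisp2 values of 4.71, 4.76, 11.2 and 5.85, the cHET cords 5.24, 2.29, 34.1 and 9.79, and the knockouts 1040, 1558, 956 and 569. The P60 controls had 2.81, 5.59 and 6.29, the cHET cords 1.77, 11.3 and 5.26, and the knockouts 299, 451 and 259. The lowest cKO library lay above the highest other library at both ages, and cHET 3 was the highest of the P21 libraries outside the knockout. Such a rise without overlap was seen for 12.7% of genes tested against cHET and 15.0% against controls at P21, and for 20.6% and 22.0% at P60.

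The cKO mean of Wisp2 was 80.1 times the cHET mean and 156 times the control mean at P21, and 55.1 and 68.7 times at P60. Single reference libraries set the ratios to cHET: without P21 cHET replicate 3 the P21 ratio was 179, and without P60 cHET replicate 2 the P60 ratio was 95.7. On the scale of log2(value + 0.5), the log2 change against cHET was 6.80 ± 0.59 (SE) at P21 and 5.93 ± 0.53 at P60. Against controls it was 7.17 ± 0.59 and 5.99 ± 0.53. Ranked from the largest rise, these were the second of 17989 genes against cHET and the first against controls at P21, and places 3 and 14 of 16833 genes at P60. With values of a few units in the reference groups, the size of these changes depends on the pseudocount: with 5 in place of 0.5 the change against cHET was 6.08 at P21 and 4.99 at P60. Without P21 cHET replicate 1 the P21 change was 6.60. In the heterozygous animals, Wisp2 differed from controls by 0.37 ± 0.59 (limma adjusted p = 0.92; 95% confidence interval −0.89 to 1.63) at P21 and by 0.06 ± 0.53 (adjusted p = 1; −1.11 to 1.22) at P60. This comparison shares its libraries with the cKO comparisons, where low reference values enlarge a rise. It is thus not independent of the choice of Wisp2.

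**Figure D1:**
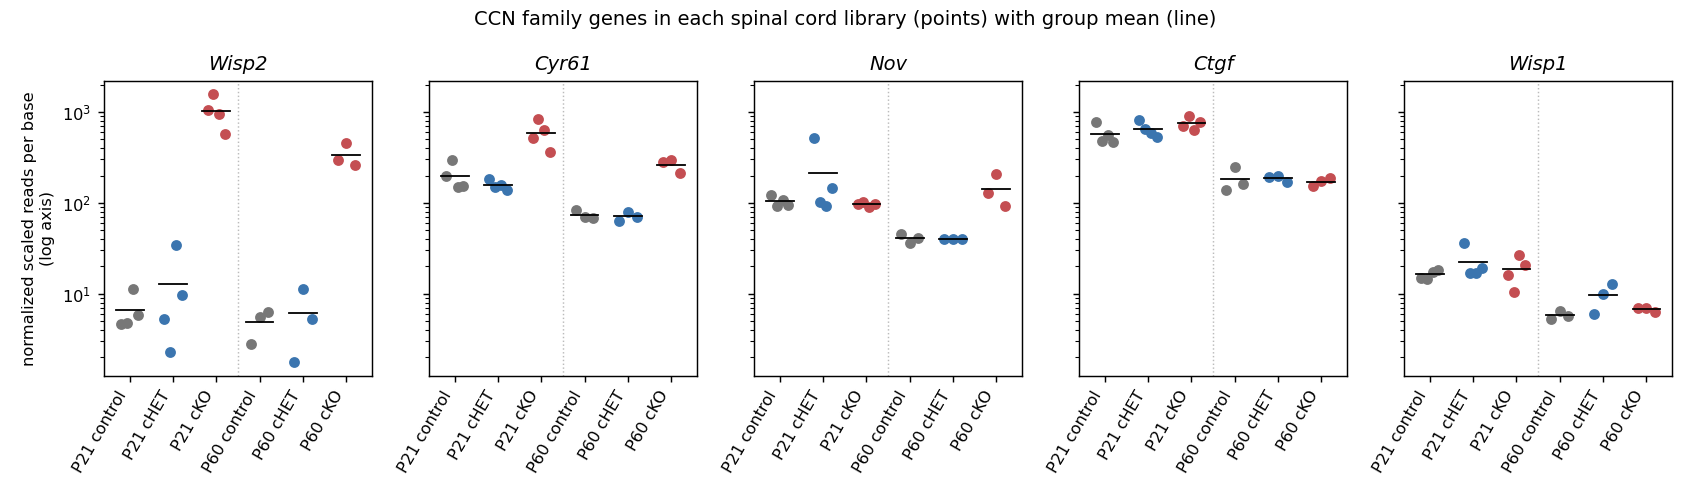
Each panel shows 1 CCN gene, with every library as a point by genotype (control, cHET, cKO) and age, in normalised scaled reads per base on a log axis; bars are group means. Wisp2 sits at 569 to 1558 in P21 cKO and 259 to 451 in P60 cKO, above every other library, while Wisp1 and Ctgf overlap between genotypes.

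Cyr61 rose in the knockout at both ages. Cyr61 is an immediate-early gene that responds to serum, stretch and growth factors, and its protein binds integrins. Its gene (ENSMUSG00000028195) lies on chromosome 3 from 145646976 to 145649981 on the minus strand. The promoter of this gene, the only one of the 5 matched in the RefSeq promoter table, is shown because Cyr61 was the member called in all 4 knockout comparisons. The 250 bases before its start, at chr3:145649986-145650235 (GRCm38.p6, minus strand), read as follows, with the capitals marking a TEAD motif (GGAATG) on the opposite strand.
Cyr61: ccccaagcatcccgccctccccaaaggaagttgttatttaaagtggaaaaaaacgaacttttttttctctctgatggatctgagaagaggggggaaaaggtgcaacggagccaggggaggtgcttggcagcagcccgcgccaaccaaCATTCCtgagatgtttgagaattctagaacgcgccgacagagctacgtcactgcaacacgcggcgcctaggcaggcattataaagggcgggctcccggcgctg
The motif begins 103 bases before the start site (position −103), and 14.7% of the 32851 promoter windows of 300 bases hold these letters on either strand. No match was found in this window for the SMAD letters CAGACA, which 21.0% of windows hold, for the TCF/LEF letters CTTTGAA (5.14%), for the AP-1 letters TGANTCA (7.81%) or for the CArG box (1.63%). A match of this kind describes the letters and no binding was measured.

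Cyr61 was 515, 845, 636 and 366 in P21 knockouts, where controls had 196, 297, 150 and 155 and cHET animals 183, 148, 157 and 139. In P60 knockouts it was 279, 298 and 211, where controls had 82.8, 69.8 and 68.7 and cHET animals 63.8, 79.1 and 69.9. At both ages the lowest cKO library lay above every control and cHET library, and controls overlapped with cHET. The log2 change in cKO against cHET was 1.85 ± 0.24 (limma adjusted p = 5.6e-05) at P21 and 1.87 ± 0.15 (adjusted p = 5.9e-06) at P60. Against controls it was 1.55 ± 0.24 (adjusted p = 2.4e-04) and 1.81 ± 0.15 (adjusted p = 6.9e-06). The difference between ages of the cKO against cHET change was 0.02 ± 0.33 (adjusted p = 0.99; 95% confidence interval −0.67 to 0.71), and −0.06 (adjusted p = 0.97) without P21 cHET replicate 1. Without P21 cHET replicate 1 the P21 change was 1.93 (adjusted p = 1.6e-04). Among the P21 cKO animals the females had 366 and 515 and the males 636 and 845. With sex as a covariate the limma adjusted p was 3.3e-05. The change itself, 1.85, could not move, because each P21 genotype had 2 females and 2 males.

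Ctgf, the most abundant member in controls, passed the test in none of the comparisons. Ctgf is best known as a driver of fibrosis and of matrix deposition downstream of TGF-beta. Its gene (ENSMUSG00000019997) lies on chromosome 10 from 24595442 to 24598683 on the plus strand. The 4 P21 knockouts had 692, 896, 632 and 767, beside 778, 485, 556 and 465 for controls and 823, 642, 588 and 535 for cHET. The 3 P60 knockouts had 151, 173 and 186, beside 139, 246 and 160 for controls and 194, 196 and 168 for cHET. The 3 genotypes overlapped at both ages.

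The log2 change of Ctgf in cKO against cHET was 0.21 ± 0.17 (limma adjusted p = 0.41; 95% confidence interval −0.14 to 0.57) at P21 and −0.13 ± 0.18 (adjusted p = 0.65; −0.54 to 0.27) at P60. Without P21 cHET replicate 1 the P21 value was 0.33 (adjusted p = 0.19). Against P21 controls it was 0.40 ± 0.17 (adjusted p = 0.089), and this value passed the threshold when control replicate 1, the highest control, was left out (0.56, adjusted p = 0.014) or when libraries were weighted by quality (0.48, adjusted p = 0.038). An antisense transcript, Gm15270, overlaps Ctgf and shares 559 of its 2867 words of 31 bases. Whether the P21 counting used strand is not given in the sources used here, and reads of Ctgf and Gm15270 could then not be told apart.

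Nov differed between genotypes at P60. Nov is made by neurons and muscle cells and is known to restrain proliferation. Its gene (ENSMUSG00000037362) lies on chromosome 15 from 54745702 to 54754039 on the plus strand. At that age the controls had 45.4, 36.0 and 40.9, the cHET cords 40.5, 40.1 and 40.0, and the knockouts 128, 207 and 92.7, so that the lowest knockout library lay above every other P60 library. The rise was 1.74 ± 0.25 (limma adjusted p = 3.8e-04) on the log2 scale against cHET and 1.72 ± 0.25 (adjusted p = 3.9e-04) against controls.

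The P21 values of Nov were 122, 92.7, 107 and 95.5 for controls, 521, 103, 91.4 and 148 for cHET, and 98.2, 103, 89.8 and 96.3 for knockouts. The knockout overlapped with both other genotypes, and the one high value was that of cHET replicate 1, the library with the cortical genes. The log2 change in cKO against cHET was −0.76 ± 0.39 (limma adjusted p = 0.2) with that library and −0.21 (adjusted p = 0.47) without it, and against controls it was −0.10 ± 0.39 (adjusted p = 0.89; 95% confidence interval −0.94 to 0.74). The genotypes of an age share 1 estimate of the spread, so cHET replicate 1 also widens this interval against controls. The difference between the P60 and P21 changes against cHET was 2.5 ± 0.54 (adjusted p = 0.011), and 1.94 (adjusted p = 7.0e-04) without P21 cHET replicate 1. Against controls the difference was 1.82 ± 0.54 (adjusted p = 0.062), and without that library it was the same size with an adjusted p of 6.2e-04. This value also passed the threshold when P21 cHET replicate 3 (1.82, adjusted p = 0.044) or P60 cKO replicate 3 (2.09, adjusted p = 0.042) was left out.

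Because the cortical genes were high where Nov was highest at P21, 8 of them were followed in all libraries. These 8 were chosen after their values and those of 27 other regional markers had been seen, so their counts are a description. All 8 were higher in P21 cHET replicate 1 than in the other 11 P21 libraries, as were 8 of the 27 markers not kept, among them Drd1 (260 against 26.6 to 97.5) and Camk2a (4867 against 1954 to 2791). The sum of the 8 was 5267 in that library, 4177 of it from Slc17a7, and 602 to 822 in the others.

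At P60 the sum of the 8 cortical genes was 517, 298 and 241 in cKO replicates 1, 2 and 3 and 289 to 346 in the 6 control and cHET libraries. Nov in cKO replicates 1, 2 and 3 was 128, 207 and 92.7. Slc17a7 alone was 251, 52.9 and 28.0 in cKO replicates 1, 2 and 3 and 62.3 to 93.1 in the control and cHET libraries. Some cortical genes are not in the sum, so it is no full measure of cortical RNA. With 1 library left out, the Nov change against cHET at P60 was 1.43 to 2.01. The part of the cortical genes in the Nov values was not tested, and a sum of 8 chosen genes cannot show it.

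**Figure D2:**
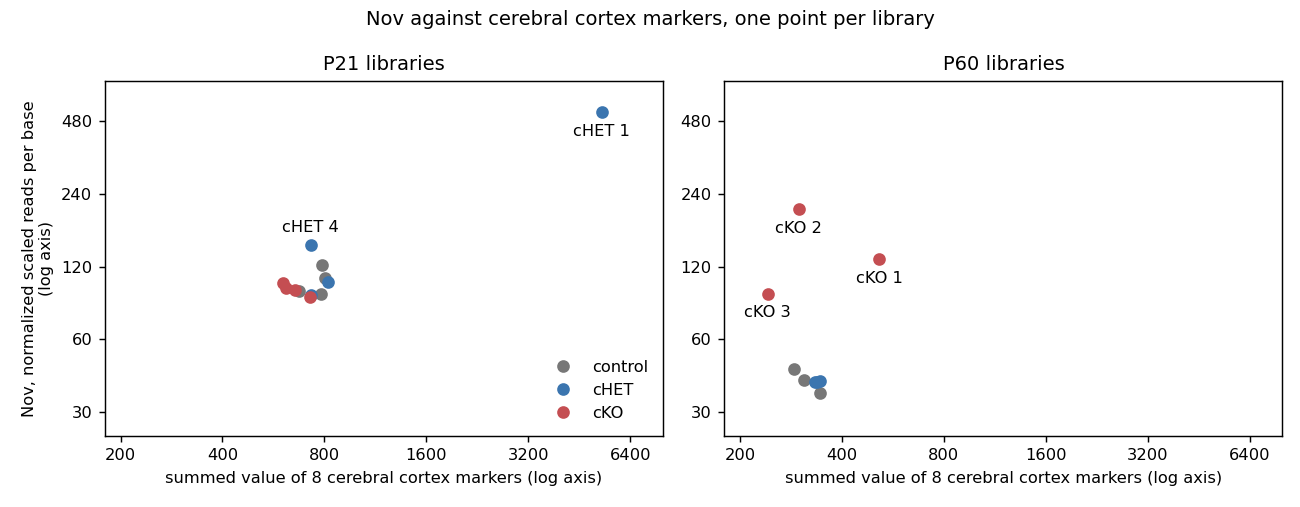
Each point is 1 library, with the summed value of 8 cerebral cortex genes on the x axis and Nov on the y axis, both in normalised scaled reads per base on log axes. P21 cHET 1 lies alone at 5267 and 521, while the 3 P60 cKO libraries have Nov from 92.7 to 207 at cortical sums of 241 to 517.

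Wisp1 was low in every group and passed the test in none of the comparisons. Wisp1 was described as a Wnt1-induced gene and acts in bone and in repair. Its gene (ENSMUSG00000005124) lies on chromosome 15 from 66891320 to 66923201 on the plus strand. The P21 libraries gave 15, 14.6, 17.5 and 18.3 for controls, 36.2, 17.0, 16.9 and 19.1 for cHET, and 16.0, 10.6, 26.9 and 20.6 for knockouts. The P60 libraries gave 5.26, 6.55 and 5.67 for controls, 6.00, 9.91 and 12.9 for cHET, and 7.02, 6.95 and 6.25 for knockouts. The genotypes overlapped at both ages, and the highest P21 value was again that of cHET replicate 1. The log2 change in cKO against cHET was −0.26 ± 0.33 (limma adjusted p = 0.63; 95% confidence interval −0.97 to 0.44) at P21, −0.01 (adjusted p = 0.99) without that library, and −0.42 ± 0.38 (adjusted p = 0.48; −1.26 to 0.42) at P60.

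Counted together, 1 of the 4 members other than Wisp2 was called in cKO against cHET at P21, where 22.6% of all genes tested were called, and 1 of 4 against controls, where 26.9% were. At P60 2 of 4 were called in each comparison, against 25.0% of genes in cKO against cHET and 25.9% against controls. All these calls were rises, which made up 12.6% and 14.6% of genes tested at P21 and 13.4% and 14.5% at P60. For the age difference, 1 of 4 was called against cHET (3.20% of genes, 1.49% upward) and 0 of 4 against controls (4.48%; 1 of the 4 at an unadjusted p under 0.05). In cHET against control none of the 5 members was called at either age, with the limit given above for Wisp2. Of all genes 0.0111% were called there at P21 and 0.0178% at P60. None of the 4 had an unadjusted p under 0.05 there, and their q values in the authors' deposited tables were 0.93 to 1.

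**Figure D3:**
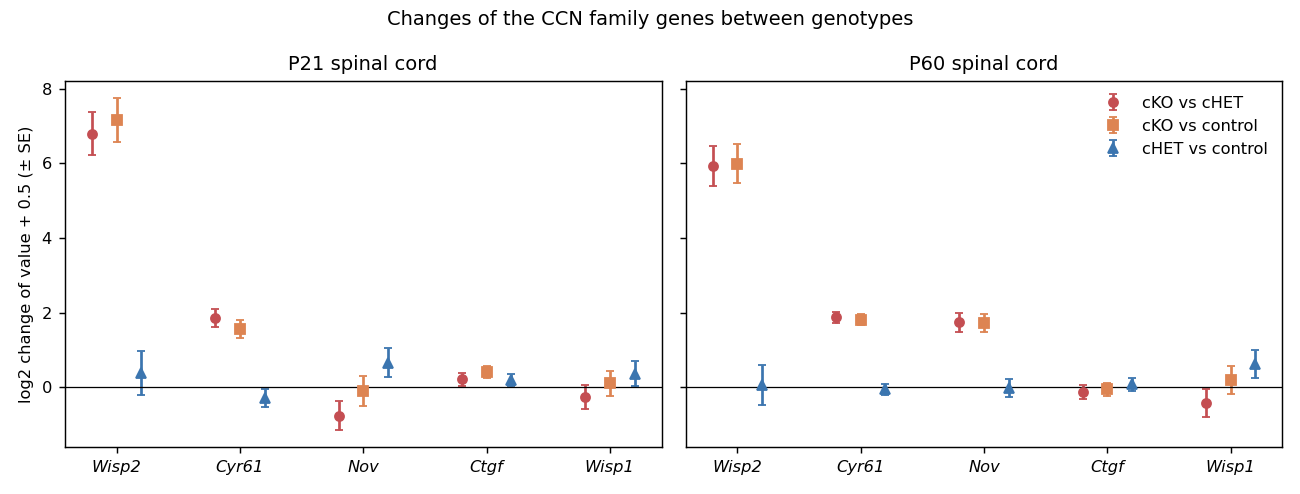
Points are the log2 changes of value + 0.5 for each CCN gene in cKO against cHET, cKO against control and cHET against control at P21 and P60, and bars are standard errors. Cyr61 lies between 1.55 and 1.87 in the 4 cKO comparisons, Nov at 1.74 and 1.72 at P60, and Wisp2, untested, between 5.93 and 7.17.

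The order of the means in the knockout differed from that in controls. The place of Wisp2, its share of the family and its part in the 5-gene sum follow from its choice. In P21 cKO the means ran from Wisp2 (1031 ± 407) to Ctgf (747 ± 114) and Cyr61 (590 ± 202), whose libraries overlapped with their neighbours, and then Nov (96.8 ± 5.45) and Wisp1 (18.5 ± 6.93). In P60 cKO they ran from Wisp2 (336 ± 101) and Cyr61 (263 ± 45.6), which overlapped, to Ctgf (170 ± 17.3) and Nov (143 ± 58.6), which overlapped too, and Wisp1 (6.74 ± 0.426). The 5-gene sum was 740 to 1116 in P21 controls, 851 to 1568 in cHET and 1819 to 3412 in cKO. The P60 sums were 276 to 364, 296 to 337 and 755 to 1136 in the same order. Because these sums hold Wisp2, their separation is no result about the other members. The share of Wisp2 in that sum was 31.3% to 45.7% in P21 cKO and 34.3% to 39.7% in P60 cKO, and at most 3.85% in any other library.

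**Figure D4:**
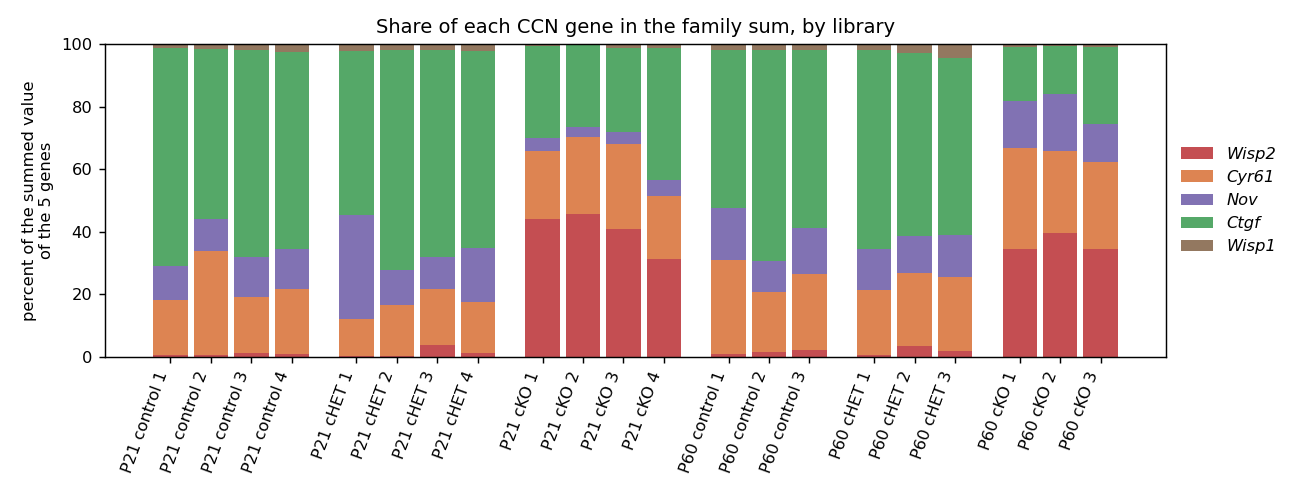
Each bar is 1 library, divided by the percent that each CCN gene contributes to the sum of the 5 genes. Ctgf takes 50.6% to 70.4% of the sum in every control and cHET library, and in the cKO libraries Wisp2 takes 31.3% to 45.7%.

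The knockout libraries did not vary together across the whole family. Replicate 2 had the highest Wisp2 and Cyr61 at both ages, and P21 replicate 4 and P60 replicate 3 had the lowest of both. P21 replicate 2 was also the highest of its group for Ctgf (896) and Nov (103), and the lowest for Wisp1 (10.6). P21 replicate 4 had the second highest Ctgf of its group, 767, beside the lowest Wisp2, 569. At P60 replicate 2 was also the highest for Nov (207) and replicate 3 the lowest (92.7).

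Genes whose pattern was most like each member were found by Pearson correlation of log2 values over the 12 P21 and the 9 P60 libraries, ranked by the lower of both among 16568 genes. All such correlations are a description. Those of Wisp2 and Cyr61, and of Nov at P60, mostly follow the shared difference between genotypes. At P21 Nov did not separate the knockout, and its 1 high value was that of cHET replicate 1. For Wisp2 the closest genes were Gpnmb, a glycoprotein of lipid-laden myeloid cells (0.98 and 0.98), Themis2 (0.98 and 0.98), the intermediate filament Vim (0.98 and 0.98), the small collagen-binding proteoglycan Fmod (0.98 and 0.99) and the microglial receptor Trem2 (0.98 and 0.98). Fmod had means of 174, 205 and 2548 in P21 control, cHET and cKO and of 109, 123 and 1387 at P60. For Cyr61 they were Itpripl2 (0.97 and 0.99), Zfp36, which destabilises cytokine messages (0.97 and 0.98), and Slco2b1 (0.97 and 0.98). For Nov they included Sugct (0.89 and 0.91) and Smpd3 (0.80 and 0.83). Sugct was 98.9 to 105 in P60 cKO and 56.6 to 63.5 in the other P60 libraries. At P21 it was 229 in cHET replicate 1, the library with the highest Nov, and 94.1 to 134 in the others. Ctgf and Wisp1 had no gene above 0.70 at both ages.

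Most of the receptor genes of the family changed. Of 12 receptors and co-receptors of CCN proteins, 8 rose and 1 fell in cKO against cHET at P21, and 8 rose and 2 fell at P60, with medians of 0.50 and 0.64 on the log2 scale against −0.01 and 0.00 for all genes. Of all genes tested in the same comparisons, 22.6% were called at P21 (12.6% upward) and 25.0% at P60 (13.4% upward), and the counts of each list below stand against these shares. The gene lists here and below were chosen with earlier results of these data known, so their counts are a description. The genes named from each list had its smallest p in P21 cKO against cHET. Their adjusted p-values are thus a description too. Itgb2, the leukocyte integrin beta chain, rose by 3.03 ± 0.21 (limma adjusted p = 1.0e-07) at P21 and 2.68 ± 0.29 (adjusted p = 5.7e-05) at P60. Itgam, its partner in microglia and other myeloid cells, rose by 1.78 ± 0.13 and 1.37 ± 0.13. Itga5, a chain of the fibronectin receptor, rose by 2.09 ± 0.17 and 2.59 ± 0.16. Itgb3, a chain of the vitronectin receptor, fell by 1.50 and 1.18, from a mean of 649 ± 22.6 in P21 cHET to 231 ± 43.4 in cKO.

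The Hippo pathway acts upstream of Cyr61 and Ctgf. Of 14 genes of the Hippo pathway with YAP, TAZ and TEAD, 5 rose and none fell at P21, and of 13 tested at P60 4 rose and none fell, with medians of 0.18 and 0.30, where 22.6% and 25.0% of all genes were called in either direction. The P21 counts of the receptor, Hippo and Wnt lists were the same without cHET replicate 1. The coactivator gene Yap1 rose by 0.34 ± 0.10 (limma adjusted p = 0.02) and 0.74 ± 0.09 (adjusted p = 1.9e-04), and Wwtr1, which encodes TAZ, by 0.37 ± 0.09 and 0.70 ± 0.11. Mob1a, a cofactor of the LATS kinases, rose by 0.65 ± 0.09 and 0.78 ± 0.09. Lats2, a kinase that restrains YAP, rose by 0.62 ± 0.10 at P21 and had 0.47 ± 0.16 (adjusted p = 0.051) at P60.

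Other known YAP and TAZ targets moved both ways. Of 18 tested, 6 rose and 2 fell at P21, and 6 rose and 3 fell at P60, with medians of 0.16 and 0.19, again against 22.6% and 25.0% of all genes called. Without P21 cHET replicate 1 the P21 count was 4 up and 1 down, when 18.9% of all genes were called. The receptor kinase Axl rose by 1.45 ± 0.13 and 1.46 ± 0.11, the membrane repair gene Myof by 1.52 ± 0.23 and 2.32 ± 0.13, and Igfbp3 by 0.68 ± 0.15 and 0.51 ± 0.11, whereas Dock5 fell by 0.81 and 0.96.

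In the TGF-beta pathway 9 of 17 genes rose and none fell at P21, and 6 rose and 2 fell at P60, with medians of 0.32 and 0.29. Without P21 cHET replicate 1 the P21 count was 6. The ligand Tgfb1 rose by 1.66 ± 0.12 (limma adjusted p = 2.6e-07) and 1.85 ± 0.19 (adjusted p = 3.8e-05), its receptors Tgfbr1 by 1.04 ± 0.11 and 1.51 ± 0.09 and Tgfbr2 by 1.49 ± 0.15 and 1.41 ± 0.10, and the target Tgfbi by 0.90 ± 0.12 and 0.64 ± 0.14. In the canonical Wnt pathway 3 of 20 genes rose and 2 fell at P21, and 4 of 18 rose and 4 fell at P60, with medians of −0.07 and −0.06. The 5 of 20 called at P21 are near the 22.6% of all genes. At P60 the 4 risen and 4 fallen of 18 were a larger share than the 25.0% of all genes, in both directions alike. The single genes named here are no result about the pathway. The receptor Fzd7 rose by 0.67 ± 0.11 and 0.37 ± 0.09 and the transcription factor Tcf7l2 by 0.54 ± 0.12 and 1.06 ± 0.16, while the feedback inhibitor Nkd1 fell by 0.44 and 0.37 and Sfrp1, a secreted Wnt antagonist, by 0.28 and 0.38.

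Of 12 other matricellular genes tested, 9 rose at P21 and 8 at P60 and none fell, with medians of 0.45 and 0.80. Without P21 cHET replicate 1 the P21 count was 7. The osteopontin gene Spp1 rose by 2.12 ± 0.15 (limma adjusted p = 9.7e-08) and 1.77 ± 0.12 (adjusted p = 1.8e-06), the periostin gene Postn by 2.30 ± 0.22 and 3.27 ± 0.30, tenascin C (Tnc) by 0.95 ± 0.14 and 1.50 ± 0.14, and Smoc1 by 0.76 ± 0.09 and 0.89 ± 0.08. Postn went from a mean of 64.1 ± 7.04 in P21 cHET to 336 ± 135 in cKO, a lower level than that of Wisp2 in the same cords. None of the genes in these 6 lists was called in cHET against control at either age.

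**Figure D5:**
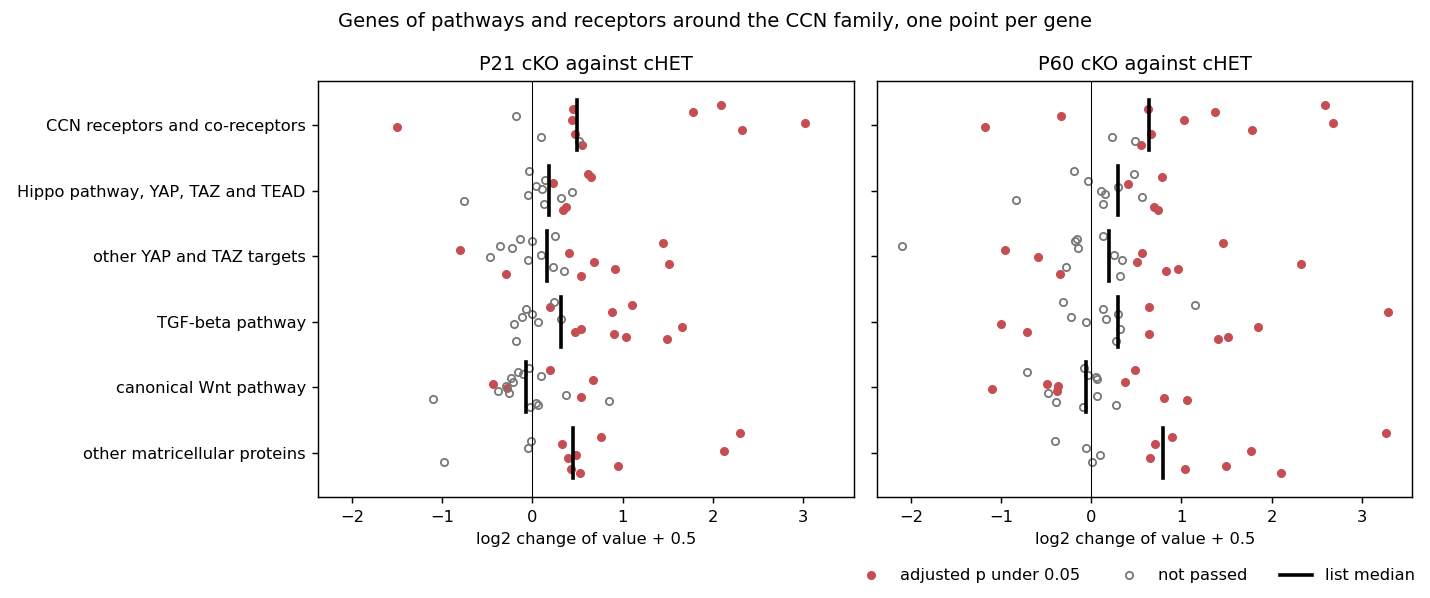
Each point is 1 gene of the 6 lists, placed by its log2 change in cKO against cHET at P21 and P60, filled where the adjusted p was under 0.05, with a bar at the list median. The medians lie from −0.07 for the Wnt list to 0.80 for other matricellular genes at P60.

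Markers of several cell types moved with these genes. The summed value of 8 microglial markers was 12322 to 14356 in P21 cHET and 44362 to 60651 in cKO, with 6 of 8 up and 1 down. The sum of 8 astrocyte markers went from 141304 to 151779 in cHET to 328993 to 377561 in cKO, with 7 of 8 up. The median log2 change of this list, which includes Vim, was 0.61. Of 8 disease-associated microglia markers, 8 rose at both ages. Of 6 Schwann cell markers, 3 rose at P21 and 2 at P60, and their sum was 864 to 1388 in P21 cHET and 1737 to 2008 in cKO. At P60 the Schwann cell sums overlapped, at 408 to 1205 in cHET and 1162 to 1305 in cKO, and the list median was −0.15. Of 8 neuronal markers, 8 fell at P21 and 4 at P60, and of 8 oligodendrocyte markers 4 fell and 1 rose at P21 (3 and 1 without cHET replicate 1) and 6 fell and 2 rose at P60. Their part in the changes of Wisp2, Cyr61 and Nov was not tested.

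Fibroblasts, vascular cells and smooth muscle are known sources of Wisp2 and Cyr61 in other tissues. The sum of 10 fibroblast markers was 1761 to 2126 in P21 cHET and 1841 to 2509 in cKO, and 858 to 1067 and 764 to 960 at P60. Of these, 1 rose and 2 fell at P21 (1 up and none down without cHET replicate 1), and 1 rose and none fell at P60. Of 8 endothelial markers none rose and 2 fell at P21 (1 without cHET replicate 1) and 1 fell at P60. The P21 counts of both lists are near the 22.6% of all genes called. Of 9 pericyte and smooth muscle markers 2 rose and 2 fell at P21 (2 up and 1 down without cHET replicate 1), and of 8 tested at P60 2 rose and 2 fell. These were larger shares than the 22.6% and 25.0% of all genes, in both directions alike. Markers of peripheral leukocytes summed to 81.1 to 128 in P21 cHET and 101 to 125 in cKO, with none of 7 called. The part of these cells in the changes was not tested either.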

How the data were processed

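Spinal cord RNA of 21 mice was profiled. The authors deposited a signal per gene and library, called normalised scaled reads per base, whose sums differ between the ages, and tables per comparison with p-values, q-values and coefficients on a natural log scale. The submitters' processing notes name kallisto 0.43.0, sleuth 0.28.1 and GRCm38, with no roles given. The member genes and gene lists were chosen with earlier results of these data known. The list of cortical genes was chosen after their values were seen. Some cortical genes are not reported here and are not in its sum, which is thus no full measure of cortical RNA, and no calls are given for it at P60.

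Genes with a value of at least 5 in 4 libraries at P21 or 3 at P60 were tested with limma 3.58.1 (R 4.3.3), with trend, on log2(value + 0.5). Each age had 1 fit over its 3 genotypes, and ages were compared by an interaction over all 21 libraries. Tests were 2-sided, p-values were adjusted by the Benjamini-Hochberg method over all genes tested, and the threshold was 0.05. All 5 members passed the filter at both ages, also over libraries other than cKO. No tests are given for Wisp2 in cKO. The script was tested on simulated data. Of each pathway list, the text names the 4 genes with the smallest p in P21 cKO against cHET, and of likeness the closest 5 genes for Wisp2 and 3 for the others, except where not reported. Members share no word of 31 bases with each other. Alternatives were other pseudocounts, filters and scalings, array weights, sex as a covariate, the authors' test and leaving out each library. Marker lists for motor neurons and erythrocytes had no gene called in cKO against cHET.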

Additional observations from a re-analysis of the deposited data

Results flagged for a closer look

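In P21 cHET replicate 1, Nov was 521 normalised scaled reads per base and Wisp1 was 36.2, each far from the other 3 libraries of its group (gap over range 0.869 and 0.887, against a critical value of 0.829). Of 15 gene and group sets of 4 libraries examined, 2 stood out in this way, and chance gives about 1 in 20. The cHET against control change of Nov at P21 was 0.66 with this library and 0.11 (limma adjusted p = 0.94) without it.

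The change of Nov in cKO against cHET differed between the ages by 2.5 on the log2 scale. The difference was 1.94 without P21 cHET replicate 1. At P60 3 of 3 cKO libraries lay above every cHET library, an upward separation seen for 20.6% of genes tested. None of the 4 P21 cKO libraries lay above the highest P21 cHET library, which was replicate 1 at 521. The next highest, cHET replicate 4 at 148, also lay above all P21 cKO libraries.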

How the results depend on the processing

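The calls of Cyr61 in the 4 knockout comparisons and of Nov at P60 held under every alternative run, and no called value changed sign. With a pseudocount of 5 the Wisp2 changes were 6.08 and 6.42 at P21 and 4.99 and 5.09 at P60 (against cHET and control). Leaving out 1 library gave 6.25 to 7.47 for Wisp2 against cHET at P21, 5.31 to 6.50 at P60 and −1.54 to −0.30 for their age difference. Ctgf against P21 controls was 0.48 with array weights and 0.31 to 0.56 with 1 library left out. The Nov age difference against controls was 1.92 with quantile normalization (adjusted p = 0.04) and 1.52 to 2.09 with 1 library left out.

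Some values that did not pass changed sign. Wisp1 in P21 cKO against control was −0.0585 with quantile normalization and −0.045 with array weights (−0.10 to 0.34 with 1 library left out), Nov in P60 cHET against control was 0.0016 and 0.006 (−0.0989 to 0.0664), and the Cyr61 age difference against cHET was −0.0134 with a pseudocount of 5 (−0.19 to 0.22). With 1 library left out, values ran from −0.23 to 0.18 for Ctgf in P60 cKO against control, −0.44 to 0.0793 and −0.14 to 0.30 for the Wisp1 age differences against cHET and control, −0.29 to 0.92 and −0.51 to 0.68 for Wisp2 in cHET against control at P21 and P60, −0.14 to 0.0278 for Cyr61 and −0.10 to 0.31 for Ctgf in P60 cHET against control. The causes were not tested.

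In P21 cHET against control 2 genes were called, and 1 without a filter, with quantile normalization or with sex as a covariate, 15 with array weights, 35 by the authors' deposited test, and 1 to 26 with 1 library left out. At P60 3 were called, 14 by the authors' deposited test, and 1 to 4 with 1 library left out. Chosen after the data were seen, leaving out P21 cHET replicate 1 gave 5 called other YAP and TAZ targets, 1 fibroblast gene and 1 endothelial gene.

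Wisp1 has no value under a filter on a mean of 50. Depth is unknown, so no counting error can be given for values of a few units. At P60 sex differs between controls and the other genotypes. No paired analysis was possible because the labels carry mouse numbers that no 2 groups share.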
